A study of Mus musculus with 6 samples.

Results

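Krüppel-like factors (KLF) and early growth response factors (EGR) are zinc finger transcription factors, and 10 of them were followed here by gene symbol: Klf2, Klf3, Klf4, Klf6, Klf7, Klf10, Klf13, Egr1, Egr2 and Egr3. All 10 were among the 21936 genes listed for each library. RNA was sequenced from sorted mouse macrophages in 2 groups of 3 libraries, from mice that had eaten a high-fat diet for 4 months. The libraries labelled WT came from ALKBH5flox/flox, APOE-/- mice, and those labelled CKO from ALKBH5flox/flox, APOE-/- mice that also carried Lyz2-Cre, a Cre recombinase expressed from the lysozyme locus of myeloid cells. Both groups therefore carry the loxP-flanked Alkbh5 and the Apoe null allele, and the Lyz2-Cre is the labelled difference. The labels do not say which tissue was sorted or whether replicate libraries come from different mice, so p-values measure the spread between libraries only, which may be technical.

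KLF proteins bind CACCC and GC-rich boxes of DNA through a block of zinc fingers at their C-terminus, while their N-termini recruit either activators or repressors. EGR proteins are made within minutes of a stimulus, when kinase cascades act on serum response factor at CArG boxes, and bind a GC-rich site through a zinc finger block of their own. In macrophages and their precursors KLF2 and KLF4 are known as restraints on inflammatory gene expression, KLF4 also as a factor of monocyte differentiation, and EGR1 and EGR2 as factors that favour the macrophage over the granulocyte fate.

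Expression is given as FPKM, which scales reads by gene length and library size, so levels can be compared between genes. The libraries held 15422154 to 18418903 reads assigned to genes. Alkbh5 did not follow the labels: it read 3.77, 3.95 and 3.88 FPKM in labelled WT libraries and 9.15, 8.61 and 8.50 in labelled CKO libraries, and Apoe, labelled null in both, read 1635 ± 29.3 against 95.0 ± 4.69 FPKM (SD, n = 3). Reads over a whole gene cannot show whether an exon was missing. Lyz2, from whose locus the labelled Cre is expressed, read 15116 ± 992 against 6556 ± 211 FPKM (SD, n = 3), and the part of the Cre in this was not tested. All directions below therefore refer to the libraries as labelled. Changes are given as labelled CKO minus labelled WT, and a gene was called where limma, adjusted over all 9953 genes tested, gave a p under 0.05. By this rule 30.5% of genes were higher and 50.5% lower, 81.1% in all. The median log2 fold change of all tested genes was -0.14, so a gene at that value moved like the middle gene. After median-of-ratios scaling, which brings that median to -0.001, 39.7% were called higher and 39.8% lower (79.5% in all), and the split of the calls was 49.9% higher in place of 37.7%.

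The labelled cell type was checked against its markers. All 8 macrophage markers were above 1 FPKM in both groups. Of them 5 were called higher and 3 lower, beside 30.5% and 50.5% of all genes. Among the higher were Fcgr1 (8.15-fold as a ratio of means), Cd14 (3.66-fold) and Adgre1 (3.51-fold), and the lower were Lyz2, Cd68 and Mertk. After quantile normalization 4 were higher and 3 lower, beside 35.9% and 43.5%, with Csf1r not called at -0.018 (limma adjusted p = 0.639). The sum of the 8 was 16351 to 18265 FPKM in labelled WT libraries and 9217 to 9644 in labelled CKO libraries, and mostly reflects Lyz2. Monocyte markers summed to similar totals, 139.5 to 168.4 against 150.1 to 173.8 FPKM, but moved in opposite directions: Ly6c2 rose 4.51-fold and Plac8 9.39-fold, while Chil3 went from 127.5 ± 12.5 to 38.8 ± 0.821 FPKM and Ccr2 from 6.35 ± 0.311 to 0.636 ± 0.0788 (SD, n = 3).

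Markers of other cell types were also unequal between the groups. The sum of 7 neutrophil markers was 589.9 to 863.5 against 62.3 to 79.2 FPKM, and all 6 tested were called lower, where 50.5% of all genes were. Of these 6, Elane, Ngp, Ltf and Retnlg passed the filter only through the libraries labelled WT, so their calls add little. S100a8 and S100a9 passed it in both groups. S100a8 went from 152.6 ± 25.9 to 33.4 ± 3.48 FPKM and S100a9 from 425.4 ± 85.0 to 37.3 ± 5.10 (SD, n = 3). In the libraries labelled CKO, Retnlg was at 0 in all 3 and Elane in 2, and Ly6g was at 0 in 5 of the 6 libraries overall. Sums of the remaining lists rest on few genes. The endothelial sum of 26.4 to 27.1 against 7.77 to 8.99 FPKM follows Vwf (19.8 ± 0.165 to 2.78 ± 0.264), and Kdr was also called lower, at 66.8% of the labelled WT mean. Pecam1, which passed the filter only through the libraries labelled CKO, was called higher (1.67-fold). Cdh5, which defines endothelium, stayed at or under 0.174 FPKM. The dendritic cell sum of 1.16 to 1.42 against 20.3 to 23.8 FPKM follows Ccr7 (0.742 ± 0.0497 to 21.1 ± 1.81), whereas Siglech read 0.372 ± 0.0457 against 0.0119 ± 0.0104. The fibroblast and smooth muscle sum of 1.37 to 2.25 against 3.55 to 3.69 FPKM follows Acta2 (0.989 ± 0.324 to 2.82 ± 0.165), which passed the filter only through the libraries labelled CKO. Dcn was also higher, at 0.0607 ± 0.0326 against 0.574 ± 0.0978 FPKM, whereas Col1a1 and Col1a2 were at 40.0% and 26.1% of the labelled WT mean. The endothelial list and the fibroblast and smooth muscle list thus show no common direction among their genes. In the dendritic cell list all genes but Siglech had a higher mean in the libraries labelled CKO. Only Ccr7 was tested, and it passed the filter only through those libraries. Flt3, Zbtb46, Xcr1 and Siglech stayed under 1 FPKM in every library, and Flt3 overlapped between the groups. A common direction of this list therefore cannot be read from these means. T and NK cell markers summed to 4.88 to 4.97 against 0.953 to 1.06 FPKM. This sum follows Cd4, which passed the filter only through the libraries labelled WT. Cd3e, Cd3d and Cd3g were near 0 in both groups, with means of 0.0320, 0.0735 and 0.0749 against 0.0152, 0.0345 and 0.0238 FPKM. Markers of B cells summed to 2.06 to 3.66 against 0.984 to 1.78, and those of platelets and erythroid cells to 172.6 to 188.7 against 115.0 to 127.4. Of the latter, Ppbp and Itga2b were called lower and Pf4 was not called (68.9 ± 1.61 against 74.0 ± 6.08 FPKM). Hbb-bs was at 0 in all 3 libraries labelled CKO, but had only 2, 0 and 3 reads in those labelled WT. No marker found in the tables was at 0 in all 6 libraries. KLF and EGR genes are also expressed in several of these cell types, the part of these markers in the results below was not tested, and in bulk RNA fewer cells of a type cannot be told apart from less RNA per cell.

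Sequence is given for Egr2 and Klf4, the 2 tested genes with the largest decreases on the log2(FPKM + 1) scale, and for Klf2, whose call depended on scaling. Of the 10 genes, 7 were matched to a promoter entry in RefSeq (GRCm38.p6) and used here. Each run below lies upstream of a RefSeq start site, 5′ to 3′ on the gene's strand, without bases that GENCODE M21 counts as exon of the gene. Capitals mark a CArG box in Egr2, a site of the MEF2 type in Klf2, and the GC box GGGCGG, on either strand, in Klf4. The Egr2 stretch is chr10:67537619-67537868 on the plus strand, within the gene and in an intron of the transcripts that start farther upstream. The Klf2 stretch is chr8:72318812-72319032 on the plus strand, and the Klf4 stretch is chr4:55532476-55532725 on the minus strand.
Egr2: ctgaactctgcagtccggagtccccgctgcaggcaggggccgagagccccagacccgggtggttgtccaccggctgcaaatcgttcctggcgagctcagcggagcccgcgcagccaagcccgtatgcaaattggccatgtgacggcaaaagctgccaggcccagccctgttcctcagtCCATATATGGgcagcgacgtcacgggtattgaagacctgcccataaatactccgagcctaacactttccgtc
Klf2: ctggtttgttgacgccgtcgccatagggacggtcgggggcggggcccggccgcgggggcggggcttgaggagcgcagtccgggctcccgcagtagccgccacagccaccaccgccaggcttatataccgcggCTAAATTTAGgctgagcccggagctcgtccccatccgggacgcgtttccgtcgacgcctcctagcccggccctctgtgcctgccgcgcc
Klf4: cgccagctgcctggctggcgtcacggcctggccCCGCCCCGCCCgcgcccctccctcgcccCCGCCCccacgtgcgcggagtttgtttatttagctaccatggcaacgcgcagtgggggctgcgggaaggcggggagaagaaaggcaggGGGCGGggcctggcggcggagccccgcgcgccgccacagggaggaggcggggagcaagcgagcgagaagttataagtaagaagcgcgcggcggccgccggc
The CArG box of Egr2, CCATATATGG, begins 72 bases before the start site, and 1.47% of 32851 upstream windows of 250 bases held one on either strand. The MEF2 site of Klf2, CTAAATTTAG, begins 118 bases before the RefSeq start, and 2.61% of windows of 221 bases held one. The Klf4 stretch holds 4 GC boxes, of which a pair share a base, and 32.7% of windows held at least 1. The KLF box CACCC was found in 52% of windows of 250 bases, in those of Klf7, Klf3, Klf13 and Klf2 and in some of the alternative Egr2 windows. The EGR site GCGTGGGCG, found in 0.536% of windows, was in none of the windows of these 7 genes, with both strands searched. Such matches describe letters only.

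Egr2 had the largest change among the 9 tested genes. Egr2, also known as Krox20, is a factor of myelination and of macrophage differentiation (chromosome 10, 67535475 to 67542188, mm10). It read 13.6, 12.8 and 13.1 FPKM in labelled WT libraries and 1.87, 2.06 and 2.15 in labelled CKO libraries. Each library labelled CKO lay far below each labelled WT, with 108 to 130 reads in place of 744 to 849. Egr2 fell by 2.23 on the log2(FPKM + 1) scale (SE 0.054, limma adjusted p = 9.18e-12), to 15.4% of the labelled WT mean. A decrease of more than 2 on that scale was called for 1.93% of all genes tested.

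Egr1 and Egr3 were scarce in both groups. Egr1, the prototype immediate early factor, read 0.944, 0.920 and 0.897 FPKM in labelled WT libraries and 1.93, 1.56 and 1.83 in labelled CKO libraries. The groups did not overlap, and Egr1 rose by 0.53 on the log2 scale (SE 0.067, limma adjusted p = 2.13e-05). It passed the filter on low values only through the libraries labelled CKO, and without any filter the adjusted p was 2.40e-04. The added 1 FPKM shrinks so low a gene, and with a pseudocount of 0.1 the change was 0.87. Egr3, a relative best known in muscle spindles and lymphocytes (chromosome 14, 70077203 to 70082614), read 0.518, 0.405 and 0.613 FPKM against 0.119, 0.338 and 0.153. These values rest on 32 to 45 reads against 9 to 23, the ranges did not overlap, and the gene was below the filter. Fitted without a filter, it stood at -0.33 on the log2 scale (SE 0.079, limma adjusted p = 0.00854). An exact two-sided permutation test of its FPKM returned p = 0.1, which is the lowest value possible with 3 libraries a group.

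Klf4 and Klf2 are close relatives, and their changes differed in size. Klf4, a factor of monocyte differentiation and of pluripotency (chromosome 4, 55527143 to 55532466), read 7.16, 7.18 and 6.87 FPKM in labelled WT libraries and 3.12, 3.36 and 3.37 in labelled CKO libraries. It fell by 0.91 on the log2 scale (SE 0.051, limma adjusted p = 1.50e-08), to 46.4% of the labelled WT mean, with no overlap, and a fall past 0.75 was called for 16.1% of all genes. Klf2, known for quiescence of endothelium and lymphocytes (chromosome 8, 72319033 to 72321656), read 15.1, 14.7 and 14.8 FPKM against 12.7, 14.1 and 13.4. The ranges lay close together without overlap, and the change was -0.14 on the log2 scale (SE 0.045, limma adjusted p = 0.0159). This is the same as the median of all genes tested, and the value was 0.023 after median-of-ratios scaling (adjusted p = 0.654), so its direction depends on the scaling. It was also not called without CKO replicate 1, at -0.10 (limma adjusted p = 0.0630).

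**Figure D1:**
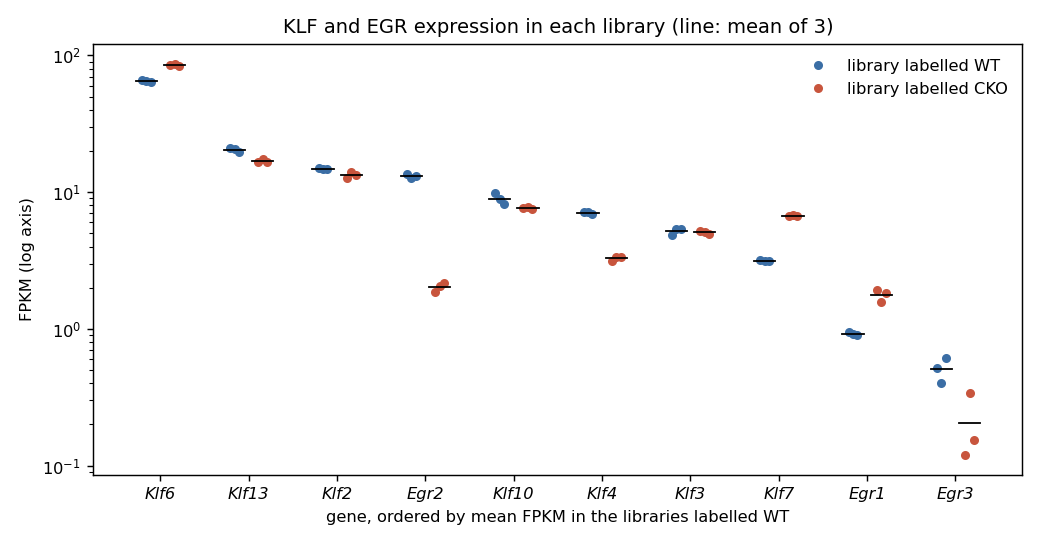
FPKM of the 10 genes in each library on a log axis, blue for libraries labelled WT and red for those labelled CKO, with a black line at the mean of 3 libraries. Egr2 and Klf4 lie lower and Klf7, Egr1 and Klf6 higher in the libraries labelled CKO, while Klf3 overlaps between the groups.

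Klf7 and Klf6 form 1 branch of the family, and both rose. Klf7, first known from neurons and adipocytes (chromosome 1, 64029447 to 64122282), read 3.16, 3.11 and 3.12 FPKM in labelled WT libraries and 6.66, 6.82 and 6.65 in labelled CKO libraries. The libraries of a group were within 1.42% (CV) of each other and the groups did not overlap. Klf7 rose by 0.90 on the log2 scale (SE 0.048, limma adjusted p = 9.63e-09), or 2.14-fold as a ratio of means, and a rise past 0.75 was called for 10.9% of all genes. The span of the lincRNA gene Gm26649 on the other strand covers 3465 bases of Klf7 exon, and whether the counting used strand is not given in the sources used here, so reads of that gene could be among those of Klf7. Klf6, a widely expressed factor that macrophages use in inflammatory gene expression (chromosome 13, 5861482 to 5870394), read 66.2, 64.6 and 63.5 FPKM against 85.0, 87.1 and 83.9. It rose by 0.39 (SE 0.031, limma adjusted p = 2.96e-07), a gain of 1.32-fold on the highest level of the family.

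Klf3, Klf10 and Klf13 encode repressors, KLF3 acting through the corepressor CtBP and the other two through Sin3, and KLF13 can also activate. Klf3 (chromosome 5, 64803388 to 64832901) read 4.89, 5.37 and 5.34 FPKM in labelled WT libraries and 5.20, 5.11 and 4.91 in labelled CKO libraries, with overlapping groups (log2 fold change -0.030, SE 0.053, limma adjusted p = 0.611). Klf10, which is induced by TGF-beta (chromosome 15, 38291463 to 38300706), read 9.83, 8.93 and 8.17 FPKM against 7.68, 7.77 and 7.50. Its 3 libraries labelled WT were spread more widely than those labelled CKO, and the gene changed by -0.20 (SE 0.060, limma adjusted p = 0.00902). Klf13, known from T cells as a regulator of Ccl5 (chromosome 7, 63886351 to 63938915), read 20.9, 20.5 and 19.5 FPKM against 16.5, 17.4 and 16.5. It changed by -0.26 (SE 0.042, limma adjusted p = 1.37e-04), or by -0.12 relative to the median of all genes. After median-of-ratios scaling Klf10 was not called, at -0.05 (adjusted p = 0.439), and Klf13 was, at -0.10 (adjusted p = 0.0490). With limma voom on reads recovered from the FPKM, Klf3 was called higher, at 0.14 (adjusted p = 0.0124), so the sign of Klf3 also depends on the scaling. Exons of Klf3 also overlap the span of Gm20033 on the other strand, by 404 bases.

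Of the 10 genes 9 passed the filter, 3 were called higher, 5 were called lower and 1 was not called. The groups did not overlap for 9 of the 10 genes, where 82.5% of all genes tested did not overlap. The 8 calls among 9 stand beside 81.1% called among all genes, and are no result about the family as a set. After median-of-ratios scaling 3 were higher and 3 lower, beside 39.7% and 39.8% of all genes. After quantile normalization 3 were higher and 3 lower, beside 35.9% and 43.5% (79.4% in all), and with voom 4 and 3, beside 40.7% and 39.8% (80.5% in all). The 5 genes Egr2, Klf4, Klf7, Klf6 and Egr1 kept their direction and call under median-of-ratios scaling (-2.09, -0.77, 1.04, 0.56 and 0.62), under quantile normalization (-2.11, -0.78, 1.04, 0.32 and 0.67) and with voom (-2.52, -0.93, 1.28, 0.58 and 1.12). Relative to the median of all tested genes their changes were -2.08, -0.77, 1.04, 0.53 and 0.67.

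**Figure D2:**
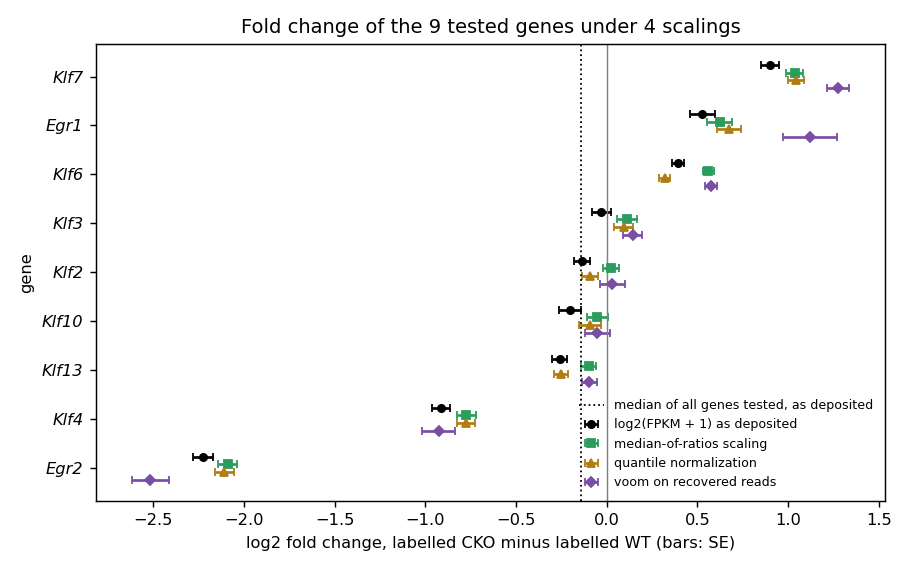
Log2 fold change, labelled CKO minus labelled WT, with SE bars, for the 9 tested genes as deposited and under 3 other scalings, and a dotted line at -0.14, the median of all genes tested as deposited. Egr2 and Klf4 lie left of 0 and Klf6, Egr1 and Klf7 right of 0 under each of them, while Klf2 and Klf3 lie on both sides of 0.

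The order of the levels shifted in the lower ranks. Klf6 was the most abundant in both groups and made up 46.6% of the summed FPKM of the 10 genes in the libraries labelled WT and 60.0% in those labelled CKO, followed in both by Klf13 and Klf2. In the libraries labelled WT the order went on with Egr2, Klf10, Klf4, Klf3, Klf7, Egr1 and Egr3, and no neighbours in it overlapped. In the libraries labelled CKO it went on with Klf10, Klf7, Klf3, Klf4, Egr2, Egr1 and Egr3. There Egr2, at 2.03 ± 0.141 FPKM, and Egr1, at 1.77 ± 0.189 (SD, n = 3), overlapped, so their order does not hold beyond the spread. Klf7 moved up by 3 places and Egr2 down by 4 on these means.

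Ratios of FPKM within a library do not depend on how libraries are scaled to each other, and 5 were computed after the values had been seen. Egr2 exceeded Egr1 14.4-, 13.9- and 14.7-fold in the libraries labelled WT and read 0.972, 1.32 and 1.17 times Egr1 in those labelled CKO. Egr2 thus lay far above Egr1 in 1 group, and the FPKM ranges of both genes overlapped in the other. Klf7 read 0.443 ± 0.0107 of Klf4 in the libraries labelled WT and 2.05 ± 0.0830 times Klf4 in those labelled CKO (SD, n = 3), so the more abundant of the pair was exchanged. Klf4 read 0.476 ± 0.0123 of Klf2 against 0.245 ± 0.00637, and Klf6 read 4.36 ± 0.0561 times Klf2 against 6.36 ± 0.272. For each of the 5 ratios the groups did not overlap, and an exact two-sided permutation test returned the same lowest possible p = 0.1. The pairs were picked with their values known, so neither outcome counts as a test of them. Among single genes tested 82.5% did not overlap, and the share among pairs of genes was not computed.

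**Figure D3:**
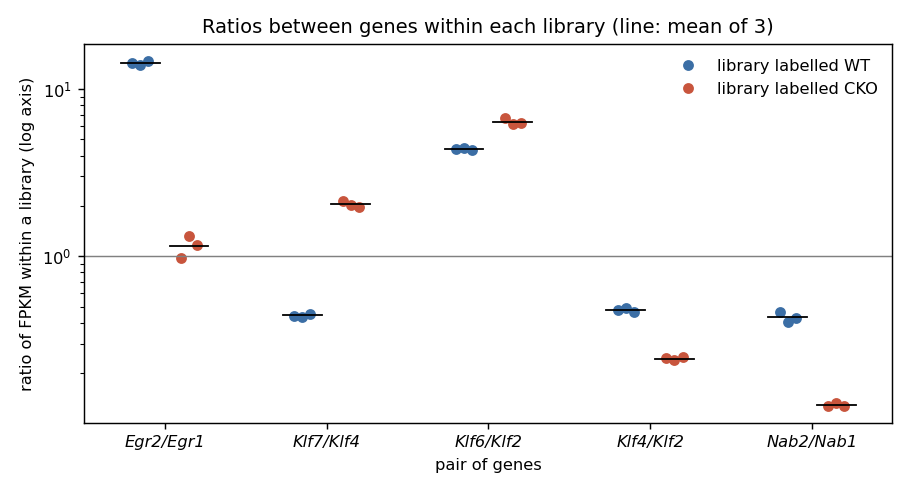
Ratio of FPKM between pairs of genes within each library, on a log axis with a grey line at 1, blue for libraries labelled WT and red for those labelled CKO, black line at the mean of 3. Egr2/Egr1 lies near 14 in the libraries labelled WT and near 1 in those labelled CKO, and Klf7/Klf4 lies below 1 in the former and above 1 in the latter.

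Other genes of the families were mostly below the filter. Of 19 further KLF and SP genes present, 8 were tested: 6 were called lower, 1 higher and 1 was not called, beside 50.5% lower and 30.5% higher among all genes. Their median log2 fold change was -0.41 beside -0.14 for all genes. Klf9, a target of glucocorticoid and thyroid hormone, went from 5.47 ± 0.453 to 1.95 ± 0.168 FPKM (SD, n = 3), and Sp1, a general GC box factor, from 14.2 ± 0.165 to 9.27 ± 0.338. Klf8 changed by -0.55 and Klf11, which passed the filter only through the libraries labelled WT, by -0.59. After median-of-ratios scaling 5 were lower and 1 higher, beside 39.8% and 39.7% of all genes. Klf14, Klf17, Sp5 and Sp6 had no read in any library. Egr4 and Wt1, the nearest relatives of the EGR genes, also had none.

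NAB1 and NAB2 bind EGR proteins and repress their activity, and their genes went in opposite directions. Nab1 read 20.9, 22.3 and 21.9 FPKM in labelled WT libraries and 36.0, 34.9 and 33.7 in labelled CKO libraries, a rise of 0.66 on the log2 scale (SE 0.039, limma adjusted p = 2.56e-08). Nab2, itself known as an EGR target, went from 9.35 ± 0.375 to 4.51 ± 0.167 FPKM (SD, n = 3) with no overlap, and fell by 0.91 (SE 0.050, limma adjusted p = 1.33e-08). Nab2 read 0.432 ± 0.0317 of Nab1 in the libraries labelled WT and 0.129 ± 0.00242 in those labelled CKO (SD, n = 3). Both directions held under all 3 other scalings.

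Cofactors that KLF proteins recruit went both ways. Of 13 tested, 4 were called higher, 4 lower and 5 were not called, with a median of -0.01, beside 30.5% higher and 50.5% lower among all genes. After median-of-ratios scaling 7 were higher and 2 lower, beside 39.7% and 39.8%. Ctbp1, which encodes a partner of KLF3, went from 49.8 ± 1.29 to 26.6 ± 0.870 FPKM (SD, n = 3), and Fhl3, another partner of KLF3, from 30.8 ± 1.90 to 47.9 ± 0.730. The deacetylase gene Hdac1 rose by 0.82 and the acetyltransferase gene Kat2b by 0.58. Genes that mark KLF proteins for breakdown were lower in 5 of 7 cases and higher in 1, where 50.5% and 30.5% of all genes were, or lower in 4 after median-of-ratios scaling (39.8% of all genes). Among them Wwp1, a ubiquitin ligase for KLF2, read 55.0, 55.1 and 54.9 FPKM in labelled WT libraries and 3.92, 4.31 and 3.76 in labelled CKO libraries, a fall of 3.49 on the log2 scale (limma adjusted p = 7.72e-14). Fbxw7 changed by -0.89 and Fbxo32 by -1.01, while Vhl rose by 0.79. Fbxo32 and Siah1b passed the filter only through the libraries labelled WT.

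Input to these genes was described by 2 lists. Of 12 tested genes of serum response factor and MEF2 input, 9 were lower, 2 higher and 1 was not called, with a median of -0.62, beside 50.5% lower and 30.5% higher among all genes. After median-of-ratios scaling 8 were lower and 3 higher, beside 39.8% and 39.7%. Mrtfa, a coactivator of serum response factor, went from 27.9 ± 0.433 to 9.55 ± 0.554 FPKM (SD, n = 3). Mef2a and Mef2c, factors of the MEF2 type, fell by 1.04 and 1.31 on the log2 scale, Mef2c having passed the filter only through the libraries labelled WT, whereas Elk3, a partner of serum response factor, rose by 0.95. Srf itself, named after its values were seen, rose by 0.30 (limma adjusted p = 8.38e-04), from 12.7 ± 1.14 to 15.9 ± 0.829 FPKM. Of 14 tested genes of the ERK cascade, 5 were higher and 5 lower, with a median of 0.04, beside 30.5% and 50.5% of all genes. After median-of-ratios scaling 9 were higher and 5 lower, beside 39.7% and 39.8%. The kinase gene Map2k1 rose from 33.4 ± 0.513 to 92.6 ± 3.66 FPKM and Spred1, an inhibitor of the cascade, by 1.43, while Mapk3 and Rps6ka3 fell by 0.52 and 0.76.

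Other immediate early genes, which are induced together with EGR1 by stimuli and by the handling of cells, were called higher in 13 and lower in 6 of 20 tested cases, with a median of 0.56, where 30.5% of all genes were higher and 50.5% lower. After median-of-ratios scaling 13 were higher and 4 lower, beside 39.7% and 39.8% of all genes. Nr4a3, among the higher, passed the filter only through the libraries labelled CKO, and Myc, among the lower, and Nr4a1, not called, only through those labelled WT. Ier3 rose by 4.23 and Dusp1, a phosphatase that switches off MAP kinases, by 3.33, and the AP-1 genes Junb and Fosl2 by 1.66 and 2.03. The part of cell handling in the change of Egr1 was not tested.

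Genes described elsewhere as targets of these factors were found in both directions. Of 10 tested genes described as targets of KLF2 or KLF4, 7 were higher and 3 lower, as deposited and after median-of-ratios scaling, with a median of 0.43, where 30.5% and 50.5% of all genes were (39.7% and 39.8% after scaling). Cdkn1a, a cell cycle inhibitor, rose by 3.78 and Cd14, a co-receptor for lipopolysaccharide, by 1.87. Arg1, which breaks down arginine, went from 0.0517 ± 0.0283 to 35.2 ± 1.64 FPKM (SD, n = 3) and Mrc1, the mannose receptor, from 29.7 ± 0.853 to 1.88 ± 0.118. Both are described as genes that KLF4 raises, and they moved oppositely while Klf4 fell. Chil3, also in this list, went from 127.5 ± 12.5 to 38.8 ± 0.821 FPKM, and Retnla had no read in any library. The part of Klf4 in these changes was not tested. Of 12 tested genes described as EGR targets, 5 were higher and 7 lower, with a median of -0.20, near the 30.5% and 50.5% of all genes. After median-of-ratios scaling 5 were higher and 5 lower, beside 39.7% and 39.8%. Ptgs2, which makes prostaglandins, rose by 6.23, Tnf by 3.93 and the adhesion gene Icam1 by 1.85, whereas Cblb, a ubiquitin ligase described as a target of EGR2 and EGR3 in T cells, went from 22.2 ± 0.138 to 4.83 ± 0.146 FPKM. Arg1 and Ptgs2 passed the filter only through the libraries labelled CKO, and Thbd, a described KLF target, only through those labelled WT. Nab2 is in this list as well as among the NAB genes, and Cd14 and Chil3 are described KLF targets as well as cell markers above.

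**Figure D4:**
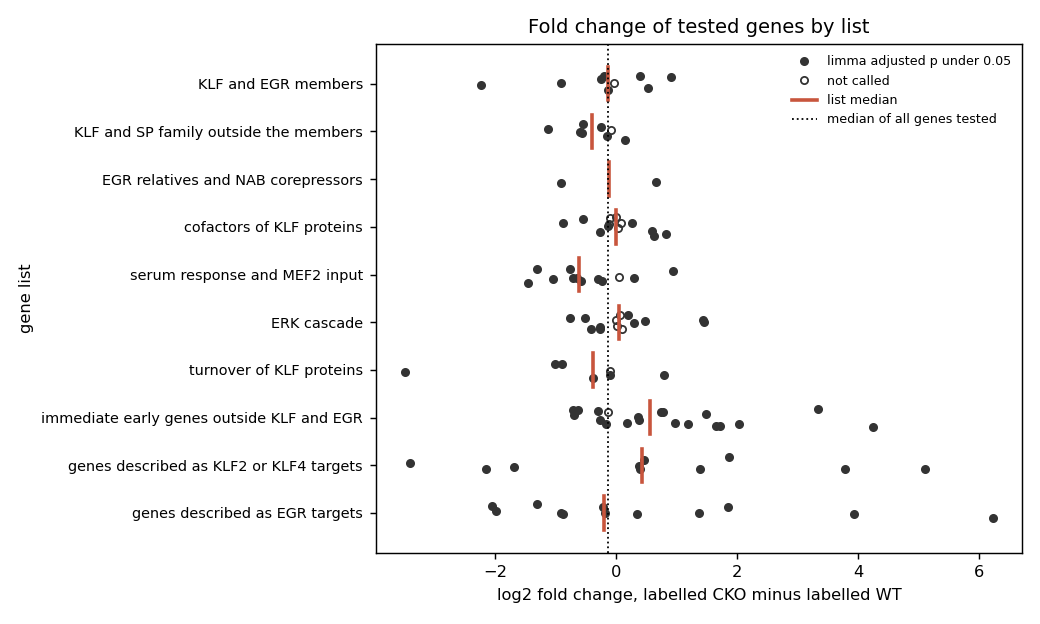
Log2 fold change, labelled CKO minus labelled WT, of each tested gene by list, filled where the limma adjusted p was under 0.05, with a red bar at the list median and a dotted line at the median of all genes tested. The serum response and MEF2 list has its median at -0.62, the immediate early list at 0.56, and the lists of described targets spread to both sides.

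The genes with the most similar profiles were found by Euclidean distance between log2(FPKM + 1) values over the 6 libraries, each gene centred on its mean, among 9952 other tested genes. For Klf7 these were Azi2, Nrf1 and P4hb, at distances of 0.0240, 0.0315 and 0.0392. For Egr2 they were Mgst3, Pltp and Cd200r4, at 0.0655, 0.0850 and 0.0915. With 2 groups of libraries this likeness mostly repeats the size of the group difference.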

How the data were processed

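Sorted macrophage RNA was sequenced in 3 libraries labelled WT and 3 labelled CKO, grouped by sample title. The authors deposited FPKM values, per the file headers, for 21936 genes a library. Tools named in the submitters' processing notes, without their roles, are featureCounts 1.6.2, HISAT2 2.1.0, fastp 0.19.3, DESeq2 1.22.1, StringTie 1.3.4d, GATK 4.0.11.0 and Cufflinks, and the build is mm10. All values were finite and at least 0. FPKM times gene length gave whole reads within 0.05 reads for 100% of values, from which depth was taken. A chi-square per degree of freedom was 2.16 to 3.18 between libraries of a group, so none was a copy of another. Between libraries of different groups it was 404 to 449.

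Genes reaching 1 FPKM in 3 or more libraries entered limma 3.58.1 in R 4.3.3 (intensity trend) on log2(FPKM + 1), labelled CKO minus labelled WT, with Benjamini-Hochberg adjustment over all genes tested. This scale understates changes of low genes. Alternatives were the replicate block, each library left out, pseudocounts, filters, 2 rescalings, no trend, and voom with trimmed-mean scaling on recovered reads. The steps were tested on simulated data. In these far fewer genes were changed than were called here, with as many rises as falls. That test therefore does not show how the steps behave on data with so many changes. Members and lists were chosen with earlier results of these data known. Named from each list were up to 4 tested genes with the smallest p, and cell markers, genes that passed the filter through 1 group only, and Srf were named after their values were seen. Coordinates of the 10 genes were the same in GENCODE M21. Tables were made with Python 3.11.15, pandas 2.3.3 and scipy 1.17.1.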

Additional observations from a re-analysis of the deposited data

How the results depend on the processing

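With a mean of at least 5 FPKM required, 1 of the 10 genes was called higher in place of 3, since Klf7 and Egr1 were no longer tested, and 3185 of all genes were lower in place of 5031, with fewer genes tested. Of the 10, 3 were called lower in place of 5 after median-of-ratios scaling, after quantile normalization and with voom. Under these, Klf2 was at 0.023, -0.093 and 0.031, Klf10 at -0.052, -0.092 and -0.052, and Klf3 at 0.11, 0.093 and 0.14, so Klf2 and Klf3 changed sign, and the cause beyond the shift of all genes by 0.14, 0.09 and 0.15 was not tested. Leaving out 1 library at a time gave 3 to 3 genes higher and 4 to 5 lower of the 10, and of the 9 tested only Klf2 lost its call, without CKO replicate 1. No pairing by replicate number was seen: deviations of same-numbered libraries correlated at 0.019, 0.012 and -0.039. With 3 libraries a group this does not settle whether equal numbers share anything. With the replicate block 3 of the 10 were higher and 5 lower, and 3018 of all genes were higher and 5023 lower in place of 3038 and 5031. Egr1 and Egr3 rest on the fewest reads.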
